A study of Mus musculus with 9 samples.

Results

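The genes of the proteasome were followed in mouse embryonic stem cells that lack β-catenin, with or without an added E-cadherin fusion protein, and in control cells. Members were all genes on the array whose symbol is Psm, one letter from a to g and a number, each read from its brightest feature with 1 gene symbol. The inducible genes Psmb8, Psmb9 and Psmb10 were left out of the set. This gave 45 genes of 19938 with values. The 3 genotypes were compared, with 3 arrays each. Null Eα cells had both β-catenin alleles deleted and also carried a stable transgene for a protein that joins E-cadherin to α-catenin. Null cells had both alleles deleted and no fusion. Flox cells, the controls, had lost 1 allele and kept the other as a floxed allele, so every group had lost at least 1 allele. All cells came from a mixed S129S6-C57BL/6 background. They grew on gelatin in medium that held 1000 U/ml of leukaemia inhibitory factor and 15% FCS, and were harvested below confluence. The labels call the replicates biological but do not say whether they were separate lines or cultures of 1 line, and no label gives the promoter that drives the fusion. The p-values therefore measure the spread between these arrays, and genotype and line cannot be told apart.

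The proteasome degrades proteins that carry ubiquitin. Its core is a barrel of stacked rings, with α subunits (Psma genes) forming the outer gates and β subunits (Psmb genes) the inner chamber, where Psmb5, Psmb6 and Psmb7 carry the active sites. A regulatory particle caps the barrel. Its base holds a ring of ATPases (Psmc genes) that unfold substrates and large scaffold subunits, and its lid (most Psmd genes) removes the ubiquitin chain. Other members activate or block the core (Psme genes and Psmf1) or help to assemble the particles (Psmg genes, Psmd5, Psmd9 and Psmd10). Every cell needs the complex, and its subunits are built into one particle in fixed proportions.

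Values are log2 RMA signals, and a difference of 1 log2 unit is a doubling. A gene counts as called where a limma fit to the 9 arrays gave p under 0.05 after Benjamini-Hochberg adjustment across all 19938 genes, and errors after ± are the standard errors of that fit unless named SD. Ctnnb1, the deleted gene, had 10.23, 10.13 and 10.32 on the null Eα arrays, 10.55, 10.50 and 10.47 on the null arrays and 11.13, 11.13 and 11.21 on the flox arrays. The groups did not overlap, although the feature covers the whole transcript and so also probes that a deletion may leave in place. The arrays did not share 1 distribution. Their interquartile ranges were 3.21 to 3.37 in null Eα, 3.41 to 3.46 in null and 3.75 to 3.84 in flox, so bright genes lay lower and dim genes higher in the lines without β-catenin. Of the 45 members 40 belonged to the 4985 genes with the highest mean level. Replicates were close, with a median SD over members of 0.0574 in null Eα, 0.0529 in null and 0.0452 in flox. Null Eα replicate 3 lay nearer to the null arrays than its 2 companions for several members below, among them Psma5, Psmd4, Psme1 and Psme4.

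Proteasome genes changed in both directions against flox. In such bulk samples fewer cells of a type and less RNA per cell cannot be told apart. In null cells 14 members rose, 19 fell and 12 were not called. The share of all genes called was 55.2%, with 26.5% higher and 28.7% lower, against 73.3% of members. In the 4985 genes with the highest mean level it was 73.8%, with 27.4% higher and 46.4% lower, so the members' share was near that of genes of like brightness. For 21 members the null arrays lay wholly above the flox arrays and for 20 wholly below, beside 35.5% and 31.9% of all genes (67.4% either way). Of the 4985 bright genes, 1596 lay wholly above and 2516 wholly below. The members' median difference was 0.01, beside 0.06 over all genes and -0.16 over those 4985 bright genes. In null Eα cells 10 members rose, 24 fell and 11 were not called. Here 63.7% of all genes were called (32.1% higher, 31.6% lower), and 72.4% of the 4985 bright genes (53.4% lower). The members' share called lower was 53.3%. For 12 members the null Eα arrays lay wholly above the flox arrays and for 26 wholly below, beside 35.9% and 33.6% of all genes (69.5% either way). Here 1107 of the 4985 bright genes lay wholly above and 2809 wholly below. The members' median was -0.27, beside 0.07 over all genes and -0.29 over those 4985 bright genes. After quantile normalization, which gives all arrays 1 distribution, the members' median was 0.12 for null and 0.03 for null Eα, with 18 higher and 15 lower for null and 14 higher and 16 lower for null Eα. Both comparisons share the flox arrays.

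**Figure D1:**
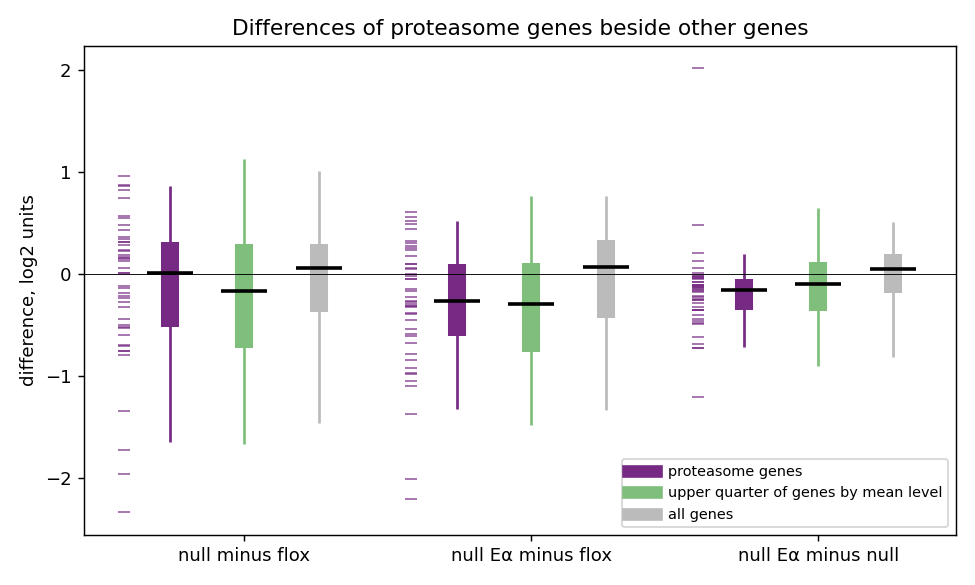
Differences in log2 units for the 45 proteasome genes, the 4985 bright genes and all 19938 genes, in 3 comparisons. Wide bars span the middle 50% of genes, thin lines the 5th to 95th percentile, black marks the median and small ticks at the left single proteasome genes; the members follow the bright genes in null Eα against flox, with medians of -0.27 and -0.29, and a few members lie far below the rest.

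The deepest fall in each line against flox was that of a β ring gene, Psmb5. Psmb5, which encodes the subunit with the chymotrypsin-like active site, had 9.88, 9.80 and 9.86 in null Eα, 9.67, 9.81 and 9.65 in null and 12.07, 12.05 and 12.03 in flox cells. All 6 arrays without β-catenin lay more than 2 units below every flox array. The difference from flox was -2.20 ± 0.07 in null Eα cells, which left 21.7% of the flox signal (limma adjusted p = 2.13e-08), and -2.34 ± 0.07 in null cells, which left 19.8% (adjusted p = 3.30e-09). The null Eα level did not differ by call from the null level (0.13 ± 0.07, adjusted p = 0.173, 0.0343 to 0.426 over 18 alternatives). Psmb3, a structural β subunit without an active site, had 11.07, 10.85 and 10.90 in null Eα, 11.22, 11.24 and 11.22 in null and 12.95, 12.99 and 12.91 in flox cells. It fell to 24.8% of the flox signal in null Eα (-2.01 ± 0.07) and to 30.2% in null cells (-1.73 ± 0.07). Under the 18 alternatives Psmb5 stayed called in both lines, with -2.29 to -1.87 in null Eα and -2.39 to -2.11 in null, and so did Psmb3, with -2.09 to -1.25 in null Eα and -1.76 to -1.38 in null.

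Genes next to them on the chromosome moved less at the median. Among the 10 tested genes nearest to Psmb5 on chromosome 14, of which Psmb11 is one, the median was -0.24 in null Eα and 0.04 in null cells against flox, and the lowest was -0.88 in null Eα and -0.96 in null. Near Psmb3 on chromosome 11 the median of 10 genes was -0.32 in null Eα and -0.56 in null, with single genes as low as -2.06 in null Eα and -1.92 in null.

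The other genes of the β ring changed less. Psmb2, a structural subunit, fell in null Eα (-0.92 ± 0.09) and in null cells (-0.79 ± 0.09), and Psmb4, another, fell in null Eα (-0.98 ± 0.08) and in null cells (-0.50 ± 0.08). Psmb1 fell in null Eα (-0.38 ± 0.07) and in null cells (-0.27 ± 0.07), calls lost under quantile normalization (-0.09 in null Eα, -0.08 in null). The 2 other catalytic genes stood apart from Psmb5. Psmb6, with the caspase-like site, had 11.00, 10.95 and 10.91 in null Eα, 11.32, 11.34 and 11.40 in null and 11.38, 11.34 and 11.31 in flox cells. The null Eα arrays lay below all others, and null and flox overlapped, with -0.39 ± 0.07 in null Eα (adjusted p = 5.12e-04) and 0.01 ± 0.07 in null (adjusted p = 0.927). With each chromosome centred on its genes above the median level, Psmb6 was instead called higher, at 0.37 in null Eα and 0.35 in null. The median over all genes in that setting was 0.45 in null Eα and 0.32 in null, so Psmb6 lay near it. Psmb7, with the trypsin-like site, had 11.13, 11.19 and 11.24 in null Eα, 11.28, 11.40 and 11.40 in null and 11.09, 11.35 and 11.25 in flox cells. Flox overlapped with both lines, and Psmb7 was not called (-0.04 ± 0.08 in null Eα and 0.13 ± 0.08 in null). Psmb11, the β subunit of thymic epithelium, was dim throughout, at 5.46, 5.32 and 5.35 in null Eα, 5.28, 5.28 and 5.38 in null and 5.12, 5.06 and 5.04 in flox cells. Its rises of 0.30 ± 0.07 in null Eα and 0.24 ± 0.07 in null were lost after quantile normalization (0.11 in null Eα, 0.12 in null), and no detection calls were used, so expression above background is not shown.

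**Figure D2:**
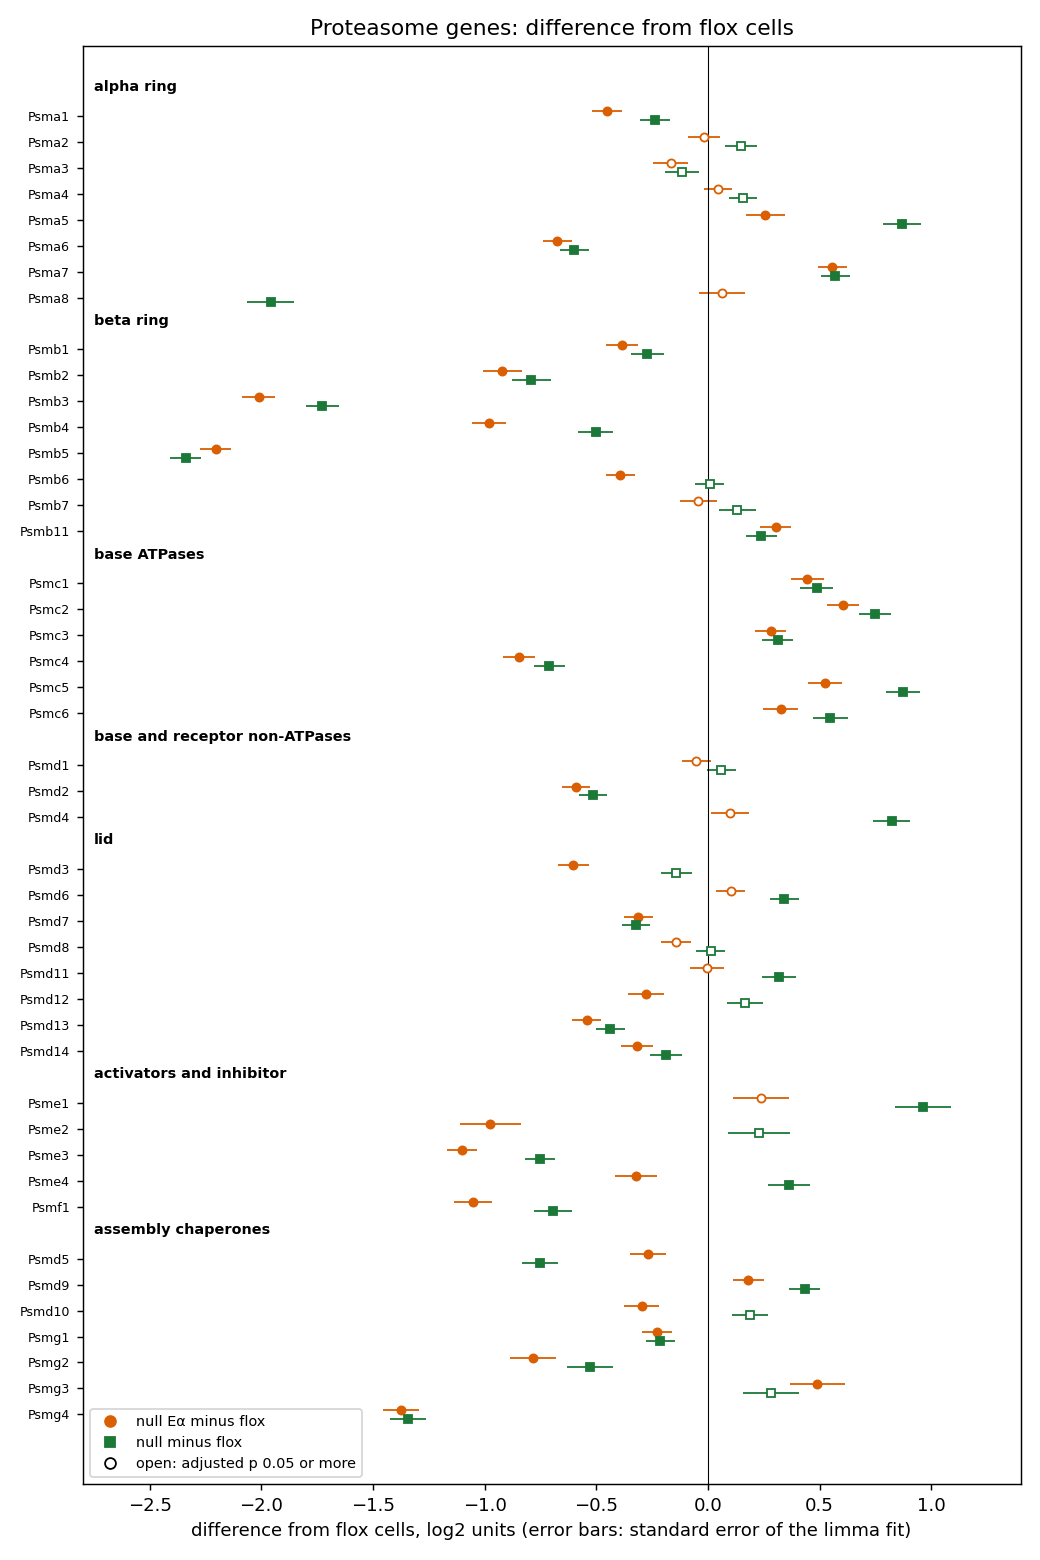
Difference from flox cells in log2 units (x axis) of each of the 45 proteasome genes, grouped by role, for null Eα (circles) and null cells (squares), with standard errors of the limma fit. Filled symbols passed adjusted p 0.05; Psmb5 and Psmb3 lie near -2 in both lines, 5 of 6 ATPase genes lie right of 0 in both, and Psma8 lies near -2 in null cells and at 0.06 in null Eα cells.

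Promoter sequence is shown for 2 members that fell against flox in both lines, Psmb5 and Psmb3, and for 2 that rose in both, Psma7 and Psmc5. In each direction these ranked first by the smaller of their 2 differences from flox. Candidates had calls in both lines that stood under all alternatives, 1 listed promoter and a chromosome other than 18. The condition of 1 listed promoter left out Psmc2, whose smaller difference was 0.61. Each line gives the 250 bases before the annotated start, 5′ to 3′ along the gene, from RefSeq on GRCm38.p6, at chr14:54617996-54618245 (minus strand) for Psmb5, chr11:97703184-97703433 (plus) for Psmb3, chr2:180042465-180042714 (minus) for Psma7 and chr11:106255935-106256184 (plus) for Psmc5. Capitals mark 2 motifs searched on both strands, TGACNNNGC, the core of the antioxidant response element bound by the factors of Nfe2l1 and Nfe2l2, and CCAAT, the box bound by nuclear factor Y.
Psmb5: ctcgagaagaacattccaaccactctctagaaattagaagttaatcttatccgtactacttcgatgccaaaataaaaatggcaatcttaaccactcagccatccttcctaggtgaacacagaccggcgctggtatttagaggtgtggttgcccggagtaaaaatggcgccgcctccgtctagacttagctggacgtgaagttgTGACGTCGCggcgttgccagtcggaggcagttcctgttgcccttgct
Psmb3: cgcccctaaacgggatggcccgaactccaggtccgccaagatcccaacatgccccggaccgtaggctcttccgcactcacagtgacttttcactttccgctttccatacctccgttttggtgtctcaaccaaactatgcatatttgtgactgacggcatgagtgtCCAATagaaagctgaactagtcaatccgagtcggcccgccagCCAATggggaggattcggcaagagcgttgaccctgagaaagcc
Psma7: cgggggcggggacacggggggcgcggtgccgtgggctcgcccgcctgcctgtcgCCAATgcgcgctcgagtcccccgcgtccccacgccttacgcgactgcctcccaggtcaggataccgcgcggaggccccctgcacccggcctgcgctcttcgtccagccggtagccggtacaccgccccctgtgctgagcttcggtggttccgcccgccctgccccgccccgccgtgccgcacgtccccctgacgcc
Psmc5: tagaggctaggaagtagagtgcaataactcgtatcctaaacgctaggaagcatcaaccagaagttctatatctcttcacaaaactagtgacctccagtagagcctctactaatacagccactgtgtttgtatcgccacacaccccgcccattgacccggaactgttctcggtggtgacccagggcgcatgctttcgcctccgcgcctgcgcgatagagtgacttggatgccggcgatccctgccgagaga
The promoter of Psmb5 holds 1 TGACNNNGC match, from 47 to 39 bases before the start. The promoter of Psmb3 holds 2 CCAAT matches, from 85 to 81 and from 43 to 39 bases before the start, and that of Psma7 holds 1, from 196 to 192 bases before it. That of Psmc5 holds neither. The table held 40 promoters of 37 members. In the same window TGACNNNGC occurred in 5 of these 40 promoters (12.5%), beside 10.2% of all 32851 promoters, and CCAAT in 13 of 40 (32.5%), beside 33.8%. The members with TGACNNNGC were Psmb5, Psmb6, Psmc6, Psmd12 and Psmd9, whose differences in null cells ran from -2.34 for Psmb5 to 0.55 for Psmc6. A match is a run of letters and not a measured binding site.

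The α ring was mixed. Psma7, a structural α subunit, had 9.86, 9.77 and 9.82 in null Eα, 9.87, 9.79 and 9.83 in null and 9.23, 9.28 and 9.27 in flox cells. Every array without β-catenin lay above every flox array, by 0.56 ± 0.07 in null Eα (adjusted p = 4.34e-05) and 0.57 ± 0.07 in null cells (adjusted p = 3.02e-05). Psma6 fell in null Eα (-0.67 ± 0.06) and in null cells (-0.60 ± 0.06), and Psma1 fell in null Eα (-0.45 ± 0.07) and in null cells (-0.24 ± 0.07), the null call being lost after quantile normalization (-0.16). With chromosomes centred the null Eα call of Psma1 was lost (-0.0038) and the null value turned to 0.19. Psma2, Psma3 and Psma4 were not called in either line, with differences from -0.17 to 0.05 in null Eα and from -0.12 to 0.16 in null. After quantile normalization Psma2 was called higher in null Eα (0.27) and null (0.32), and Psma4 in null Eα (0.29) and null (0.31), and chromosome centring also gave these calls. Psma5 had 9.74, 9.58 and 9.86 in null Eα, 10.25, 10.33 and 10.42 in null and 9.48, 9.42 and 9.50 in flox cells. The null arrays lay highest and null Eα between, with 0.87 ± 0.09 for null (adjusted p = 1.12e-05) and 0.26 ± 0.09 for null Eα (adjusted p = 0.0248, lost under 7 of 18 alternatives, among them leaving out null Eα replicate 3, at 0.19). A second Psma5 feature gave 0.44 for null and 0.02 for null Eα. The features used for Psma3, Psma5 and Psmc1 sit among features of other chromosomes in the array's ID order, so near-identical copies may contribute and these 3 genes are uncertain.

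Psma8 was the only member called lower in null and not called in null Eα against flox. It encodes the α subunit of the germ-cell proteasome, which in mice takes the place of the Psma7 product during male meiosis. Its values were 7.23, 7.25 and 6.86 in null Eα, 5.14, 5.07 and 5.05 in null and 6.98, 7.06 and 7.09 in flox cells. The null arrays lay far below both other groups, which overlapped. Psma8 fell by 1.96 ± 0.10 in null cells, to 25.7% of the flox signal (adjusted p = 1.27e-07). Null Eα differed from flox by 0.06 ± 0.10 (adjusted p = 0.606) and exceeded null by 2.02 ± 0.10 (adjusted p = 8.53e-07), or 2.15 without null Eα replicate 3. It was the member with the largest rise in null Eα against null, and Psmd5 was the only other member that rose there. Without that replicate the difference from flox was 0.19 and was called (adjusted p = 0.0452).

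Of the 6 base ATPase genes 5 rose and 1 fell in null Eα cells, beside 32.1% of all genes higher and 31.6% lower. The same numbers rose and fell in null cells, beside 26.5% of all genes higher and 28.7% lower. Psmc5 had 10.22, 10.19 and 10.11 in null Eα, 10.60, 10.49 and 10.48 in null and 9.74, 9.58 and 9.63 in flox cells. The groups were fully apart, with null highest, at 0.53 ± 0.08 for null Eα (adjusted p = 1.88e-04) and 0.87 ± 0.08 for null (adjusted p = 3.93e-06). Psmc2 had 10.12, 10.16 and 10.18 in null Eα, 10.33, 10.30 and 10.26 in null and 9.44, 9.62 and 9.58 in flox cells. It too stood in 3 separate groups, 0.61 ± 0.07 above flox in null Eα and 0.75 ± 0.07 above it in null. Psmc1, Psmc3 and Psmc6 rose by 0.28 to 0.45 in null Eα and by 0.31 to 0.55 in null cells. Psmc4 was the exception, and fell in null Eα (-0.85 ± 0.07) and in null cells (-0.71 ± 0.07), and with chromosomes centred the values were -0.40 in null Eα and -0.28 in null. All 12 of these calls stood under each of the 18 alternatives.

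The scaffold and receptor subunits of the base went separate ways. Psmd2, a large scaffold, fell in null Eα (-0.59 ± 0.06) and in null cells (-0.51 ± 0.06), while Psmd1, its companion scaffold, was not called (-0.05 ± 0.07 in null Eα, 0.06 ± 0.07 in null). Psmd4, the ubiquitin receptor, had 9.69, 9.65 and 9.94 in null Eα, 10.48, 10.50 and 10.46 in null and 9.68, 9.66 and 9.62 in flox cells. Null arrays lay above all others, and null Eα overlapped flox. Psmd4 rose by 0.82 ± 0.08 in null cells (adjusted p = 1.39e-05) and differed by 0.10 ± 0.08 in null Eα cells (adjusted p = 0.312), a difference that was called after quantile normalization (0.39) and was 0.010 without null Eα replicate 3.

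Lid genes showed small differences. In null cells 2 of the 8 genes rose and 3 fell, with differences from -0.44 to 0.34, and in null Eα cells 0 rose and 5 fell, with differences from -0.60 to 0.10. The share called, 62.5% in each line, was near that of all genes, 63.7% for null Eα and 55.2% for null. Psmd13 fell in null Eα (-0.54 ± 0.06) and in null cells (-0.44 ± 0.06), and Psmd7 fell in null Eα (-0.31 ± 0.06) and in null cells (-0.32 ± 0.06). With chromosomes centred the calls of Psmd13 were lost (-0.10 in null Eα, -0.01 in null). Psmd14, the deubiquitinating enzyme of the lid, fell by 0.32 ± 0.07 in null Eα, and its -0.19 ± 0.07 in null cells lost its call under 10 of 18 alternatives. Psmd11 was not called in null Eα (-0.00219) and rose by 0.32 ± 0.08 in null, and Psmd6 was not called in null Eα (0.10) and rose by 0.34 ± 0.07 in null. Psmd3 fell by 0.60 ± 0.07 in null Eα and was not called in null (-0.14), and Psmd12 fell by 0.28 ± 0.08 in null Eα and was not called in null (0.17). Psmd8 was not called in either line. The falls of Psmd7 in both lines, and of Psmd3, Psmd12 and Psmd14 in null Eα, turned positive when each chromosome was centred in this way (0.09 to 0.51). That centring also put the median over all genes at 0.45 in null Eα and 0.32 in null, so these signs are relative to it. Quantile normalization ended the null Eα calls of Psmd7 (-0.09), Psmd12 (-0.09) and Psmd14 (-0.17) and kept those of Psmd3 (-0.31) and Psmd13 (-0.29). With it Psmd6 was called higher in null Eα (0.31) and Psmd12 in null (0.28).

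**Figure D3:**
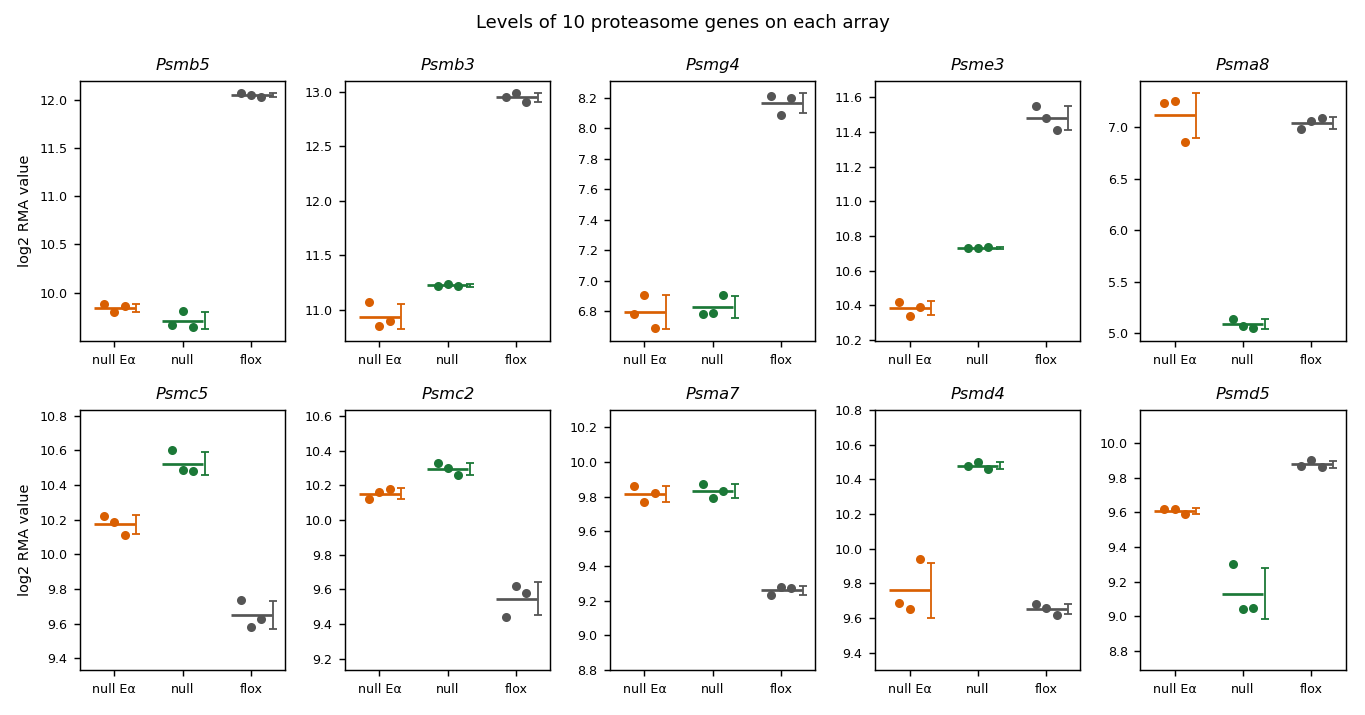
Log2 RMA values of 10 proteasome genes on each array (points), with group means (lines) and SD (bars at the right, n = 3 arrays per group); each panel has its own scale. Psmb5, Psmb3, Psmg4 and Psme3 are low in null Eα and null cells, Psmc5, Psmc2 and Psma7 are high in both, Psmd4 is high in null only, and Psma8 and Psmd5 are lowest in null.

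Among the activators, the genes of the interferon-inducible regulator PA28αβ were called against flox in different lines, which depended on the scaling. Psme1 (PA28α) had 9.50, 9.30 and 9.79 in null Eα, 10.08, 10.26 and 10.42 in null and 9.36, 9.25 and 9.26 in flox cells. The null arrays lay above all others, 0.96 ± 0.13 above flox (adjusted p = 8.41e-05), and null Eα overlapped flox (0.24 ± 0.13, adjusted p = 0.118). The null Eα value was called after quantile normalization (0.55) and was 0.11 without null Eα replicate 3. Psme2 (PA28β) had 8.98, 8.41 and 8.94 in null Eα, 9.87, 9.97 and 10.10 in null and 9.71, 9.75 and 9.79 in flox cells. Here the null Eα arrays lay below all others, 0.97 ± 0.14 below flox (adjusted p = 1.69e-04), and null was not called against flox (0.23 ± 0.14, adjusted p = 0.185), although it was called under 4 of 18 alternatives, quantile normalization among them (0.40). Psme3, of the nuclear activator PA28γ, had 10.42, 10.34 and 10.39 in null Eα, 10.73, 10.73 and 10.74 in null and 11.55, 11.48 and 11.41 in flox cells. The 3 groups were apart, at -1.10 ± 0.07 for null Eα and -0.75 ± 0.07 for null (with chromosomes centred, -0.34 for null Eα and -0.41 for null). Psme4, the activator PA200, had 10.74, 10.82 and 11.05 in null Eα, 11.44, 11.56 and 11.66 in null and 11.19, 11.19 and 11.20 in flox cells. It rose by 0.36 ± 0.09 in null (adjusted p = 0.00735), and null Eα was lower than flox (-0.32 ± 0.09, adjusted p = 0.0122). Quantile normalization ended this null Eα call (-0.19), and chromosome centring reversed its sign (0.44, beside a median of 0.45 over all genes in that setting). Psmf1, the inhibitor PI31, fell in null Eα (-1.05 ± 0.08) and in null cells (-0.69 ± 0.08).

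The 3 inducible catalytic genes left out of the set took the opposite course to Psmb5 in null cells. Psmb8, which replaces the Psmb5 product in the immunoproteasome, had 5.62, 5.58 and 5.78 in null Eα, 6.51, 7.23 and 7.45 in null and 5.14, 4.88 and 4.60 in flox cells. The groups were apart, with rises of 0.78 ± 0.22 in null Eα and 2.19 ± 0.22 in null, from a dim flox level. Psmb9, the counterpart of Psmb6, rose by 0.75 ± 0.12 in null Eα and 1.47 ± 0.12 in null. Psmb10, the counterpart of Psmb7, fell by 0.33 ± 0.12 in null Eα and rose by 0.99 ± 0.12 in null.

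**Figure D4:**
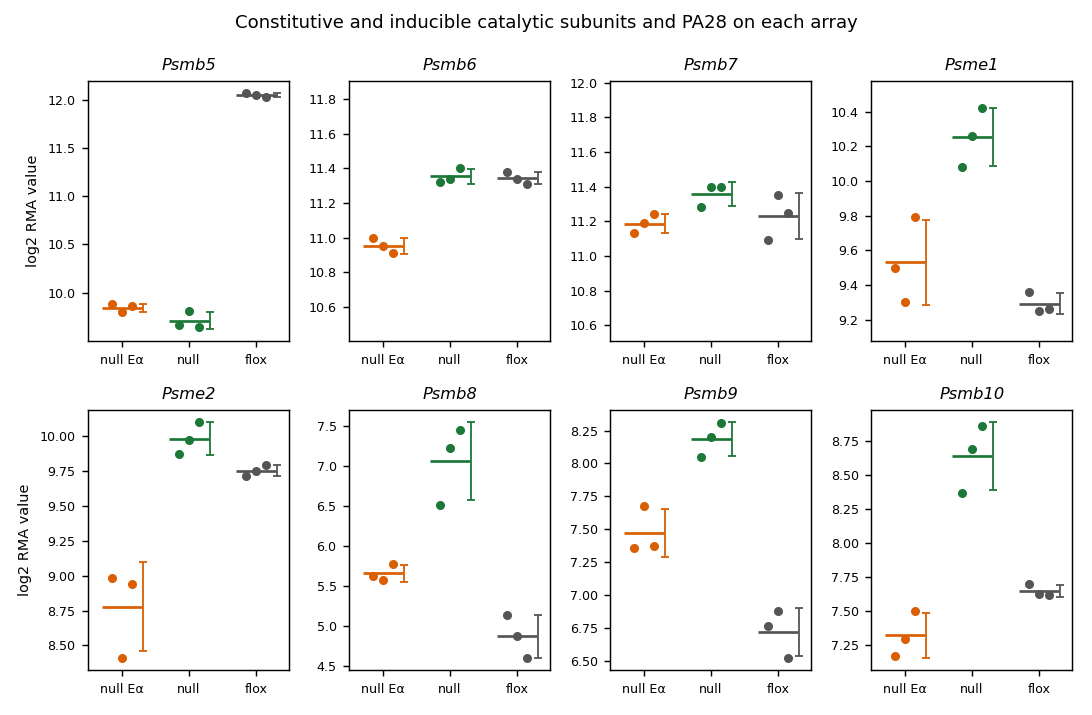
Log2 RMA values on each array (points) of the constitutive catalytic genes Psmb5, Psmb6 and Psmb7, of Psme1 and Psme2 (PA28), and of the inducible genes Psmb8, Psmb9 and Psmb10, with group means (lines) and SD (bars at the right, n = 3 arrays per group); each panel has its own scale. Psmb5 is low in null Eα and null cells, and the inducible genes and Psme1 are highest in null cells.

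Assembly chaperones also split. Psmg4, a chaperone of the α ring, had 6.78, 6.91 and 6.69 in null Eα, 6.78, 6.79 and 6.91 in null and 8.21, 8.09 and 8.20 in flox cells. Both lines lay more than 1 unit below every flox array, at 38.5% of the flox signal in null Eα (-1.38 ± 0.08, adjusted p = 3.80e-07) and 39.5% in null (-1.34 ± 0.08, adjusted p = 2.78e-07). Psmg3, with which it pairs, was dim, at 6.52, 6.55 and 6.23 in null Eα, 6.16, 6.23 and 6.28 in null and 6.02, 6.12 and 5.68 in flox cells. It rose by 0.49 ± 0.12 in null Eα and was not called in null (0.28 ± 0.12). Psmg1 and Psmg2, the other α-ring pair, fell in both lines, Psmg1 with -0.23 ± 0.07 in null Eα and -0.21 ± 0.07 in null, calls lost after quantile normalization (0.05 in null Eα, -0.04 in null), and Psmg2 fell in null Eα (-0.78 ± 0.10) and in null cells (-0.53 ± 0.10). Of the base chaperones, Psmd5 had 9.62, 9.62 and 9.59 in null Eα, 9.30, 9.04 and 9.05 in null and 9.87, 9.90 and 9.86 in flox cells. The 3 groups did not overlap, and Psmd5 fell in null Eα (-0.27 ± 0.08) and in null cells (-0.75 ± 0.08), the null Eα call being lost after quantile normalization (0.01). Psmd9 rose in both lines (0.18 ± 0.07 in null Eα and 0.43 ± 0.07 in null), and Psmd10 fell by 0.30 ± 0.08 in null Eα and was not called in null (0.19 ± 0.08). The null Eα calls of Psmd9 and Psmd10 were lost under 7 and 2 of the 18 alternatives. In null cells Psmd10 was called higher under 6 of 18, quantile normalization among them (0.39). Pomp, the maturation factor that guides the β subunits into place and is outside the set by its name, had 10.90, 10.91 and 10.93 in null Eα, 11.29, 11.24 and 11.21 in null and 9.38, 9.30 and 9.34 in flox cells. It rose by 1.57 ± 0.06 in null Eα and 1.90 ± 0.06 in null (adjusted p = 5.31e-08 for null Eα, 6.60e-09 for null), more than any member did.

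Against null cells, null Eα cells had more proteasome genes called lower than called higher. In null Eα against null, 2 members rose, 18 fell and 25 were not called, beside 13.6% of all genes higher and 18.1% lower (31.7% called). Among the 4985 bright genes 47.8% were called and 32.9% were lower, against 40.0% of members. The members' median was -0.15, beside 0.05 over all genes and -0.10 over those 4985 bright genes, and 39 of 45 differences were below 0. For 31 members the null Eα arrays lay wholly below the null arrays and for 2 wholly above, beside 21.0% and 22.0% of all genes (43.1% either way). Of the 4985 bright genes, 1927 lay wholly below and 973 wholly above. The largest falls were those of Psme2 (-1.20 ± 0.14, adjusted p = 1.53e-04), Psme1 (-0.72 ± 0.13, adjusted p = 0.00178), Psmd4 (-0.72 ± 0.08, adjusted p = 1.71e-04) and Psme4 (-0.69 ± 0.09, adjusted p = 4.33e-04). Without null Eα replicate 3, the array nearest to null in Psme1, Psmd4 and Psme4, these were -1.29 for Psme2, -0.85 for Psme1, -0.81 for Psmd4 and -0.77 for Psme4. All 5 activator and inhibitor genes fell, but with chromosomes centred the calls of Psme3 (0.070) and Psmf1 (-0.16) were lost. The rises were those of Psma8 and of Psmd5 (0.48 ± 0.08, adjusted p = 0.00145).

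Chromosome 11 carried 8 members, Psmb3, Psmb6, Psmc5, Psmd3, Psmd11, Psmd12, Psme3 and Psme4, and all 8 fell in null Eα against null, with a median of -0.37. The 876 genes of that chromosome above the median level had a median of -0.35 there, and 58.4% of them were called lower. With each chromosome centred on such genes, 1 of the 8 was still called lower, Psme4 (-0.27), and the count of members called lower in all dropped to 7. The median over all genes was 0.17 in that setting. The part of the chromosome-wide shift in the members' falls was not tested further.

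Genes that act beside the proteasome changed in both directions too. Of 37 listed names 24 were measured. Among them 5 rose and 13 fell in null Eα against flox, beside 63.7% of all genes and 72.4% of the 4985 bright genes called. In null against flox 8 rose and 10 fell, beside 55.2% and 73.8%, and in null Eα against null 3 rose and 8 fell, beside 31.7% and 47.8%. These counts are near those of the bright genes. Nfe2l2, a stress-response factor that can drive proteasome genes, had 9.31, 9.38 and 9.09 in null Eα, 8.68, 8.69 and 8.82 in null and 10.25, 10.14 and 10.35 in flox cells. It fell in null Eα (-0.99 ± 0.09) and in null cells (-1.52 ± 0.09). Nfe2l1, the factor that raises proteasome genes when proteasome activity drops, fell in null Eα (-0.71 ± 0.09) and was not called in null (-0.08 ± 0.09). It lies on chromosome 11, whose 876 genes above the median level had a median against flox of -0.62 in null Eα and -0.19 in null. Of the subunits of nuclear factor Y, Nfya fell in null Eα (-1.27 ± 0.10) and in null cells (-1.15 ± 0.10), Nfyc fell in null Eα (-1.18 ± 0.15) and in null cells (-1.56 ± 0.15), and Nfyb rose by 0.76 ± 0.09 in null Eα and 0.40 ± 0.09 in null.

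Of the partners that bind the particle, 3 rose and 2 fell of 10 in null Eα, beside 32.1% of all genes higher and 31.6% lower. In null 5 rose and 1 fell, beside 26.5% of all genes higher and 28.7% lower. Zfand5, an activator, rose by 0.65 ± 0.08 in null Eα and 0.76 ± 0.08 in null. Psme3ip1, whose product binds the Psme3 activator, fell in null Eα (-0.77 ± 0.07) and in null cells (-0.89 ± 0.07). Sem1, a small lid subunit, fell by 0.44 ± 0.08 in null Eα and rose by 0.38 ± 0.08 in null. On its chromosome, 6, the 443 genes above the median level had a median against flox of -0.65 in null Eα and -0.20 in null. Ecpas, an adaptor of the particle, differed between null Eα and null by -1.39 ± 0.25 (adjusted p = 0.00207), with null Eα replicate 3 at 9.43 beside 8.37 and 8.24 on the other null Eα arrays. Against flox Ecpas rose by 1.65 ± 0.25 in null and was not called in null Eα (0.26 ± 0.25). Of 7 genes of substrate shuttles and the p97 segregase, 1 rose and 5 fell in each line. Of all genes 32.1% were higher and 31.6% lower in null Eα, and 26.5% higher and 28.7% lower in null. Of the 4985 bright genes 53.4% were lower in null Eα and 46.4% in null. Vcp, which encodes p97, rose by 0.46 ± 0.06 in null Eα and 0.49 ± 0.06 in null. Its cofactor Nploc4 fell in null Eα (-1.58 ± 0.07) and in null cells (-0.96 ± 0.07), the shuttle Ubqln4 fell in null Eα (-0.99 ± 0.10) and in null cells (-1.42 ± 0.10), Ubqln2 fell in null Eα (-0.65 ± 0.08) and in null cells (-0.41 ± 0.08), and Rad23b fell in null Eα (-0.90 ± 0.08) and in null cells (-0.89 ± 0.08). Uba6, a ubiquitin-activating enzyme, fell in null Eα (-0.34 ± 0.08) and rose by 0.25 ± 0.08 in null.

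Markers of cell states also differed between the groups, and their relation to the proteasome values was not computed. Against flox 32.1% of all genes were higher and 31.6% lower in null Eα, and 26.5% higher and 28.7% lower in null. Of 8 embryonic stem cell markers 5 fell in null Eα and 8 in null against flox, and the log2 of their summed signal was 14.01 to 14.08 in null Eα, 12.43 to 12.60 in null and 14.45 on each flox array. Of 10 fibroblast markers 8 rose in each line, with 11.52 to 11.91 in null Eα, 12.62 to 12.90 in null and 9.14 to 9.34 in flox. The exceptions were Lum and Meox1, which were not called. Primitive endoderm markers summed to 9.14 to 9.27 in null Eα, 9.13 to 9.28 in null and 8.91 to 8.97 in flox, with 2 of 6 higher in null Eα and 1 higher and 2 lower in null. Neural markers summed to 9.16 to 9.64 in null Eα, 9.52 to 9.62 in null and 8.80 to 8.86 in flox, with 1 higher and 1 lower of 4 in null Eα and 2 higher and 2 lower in null. Nes was at 8.58 on null Eα replicate 3, beside 6.45 and 5.97 on the other null Eα arrays. Array values have no zero, so absence of a marker cannot be read from them. The part of a changed cell state in the proteasome differences was not tested.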

How the data were processed

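Transcript levels were measured on an Affymetrix whole-transcript array in 9 samples. The deposited values are log2 RMA signals per transcript cluster, which the authors computed by RMA according to the submitters' processing notes, where it has no version; whether the 9 arrays were normalized together is not given in the sources used here. Of 35556 features, 21789 carried 1 gene symbol in the platform annotation, 1621 several and 12146 none. The brightest feature of each gene was kept. Chromosomes came from the RefSeq table of GRCm38.p6 by Entrez ID.

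The model had 1 mean per group and was run in limma 3.58.1 (R 4.3.3; lmFit and eBayes with 6 residual and 4.04 prior degrees of freedom). On simulated data for null against flox with 19938 genes, 96% of differences of 1 log2 unit and 53% of differences of 0.5 were recovered, with 9 false calls. Only 100 genes were changed by each size, on independent normal noise without the unlike array spreads. In the measured data 55.2% of genes were called, so these rates need not hold there. Plots used Python 3.11.15 and matplotlib 3.10.9.

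Members, lists and tests were chosen with earlier results of these data known, so no set test was run. Every member could be named; values on every array were given for the 4 largest rises and falls per comparison among called members whose groups did not overlap, and for Psmb5, Psmb6, Psmb7, Psma8, Psmb11, Psme1 and Psme2. From the other lists the rule took the 3 smallest p per comparison and Nfe2l1, Nfe2l2 and Pomp; Vcp was added after its values were seen. Listed names without a match were not analysed here; some are older symbols of matched genes. Promoters were searched in the 250 bases before each start.

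Alternatives were quantile normalization, array centring, chromosome centring, leaving out dim genes, averaging features, another variance prior, fitting only the groups compared, a replicate block, leaving out each array, and, chosen after seeing the data, the feature that lies among genes of the named gene's chromosome.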

Additional observations from a re-analysis of the deposited data

Results flagged for a closer look

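Some genes had further array features that the comparisons did not use, and 2 of these features were higher than in the flox controls. For Psma5 the unused feature was 0.44 higher in null than in flox cells (limma adjusted p over all features = 0.00899), beside 0.87 for the feature used. For Psmc1 the unused feature was 0.29 higher in null Eα and 0.28 higher in null than in flox cells, beside 0.45 in null Eα and 0.49 in null for the feature used. The direction was the same for both features of Psma5 and of Psmc1 against flox in null cells. Other unused features were lower than in flox cells. That of Psmb3 gave -1.98 in null Eα and -1.59 in null, and that of Psmd2 gave -0.64 in null Eα and -0.57 in null. An unused Psma3 feature was called lower in null Eα (-0.20), and another was not called (-0.13). A feature shared by Psme2b and Psme2 was lower in null Eα (-1.26) and not called in null (0.31).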

How the results depend on the processing

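Calls that stood under all 18 alternatives numbered 19 of 34 (null Eα against flox), 26 of 33 (null against flox) and 8 of 20 (null Eα against null). Psma8, Psmb11 and Psmg3 were among the dim genes left out, so 17 alternatives applied to them. The counts include Psmg3 for null Eα against flox and Psma8 for the other comparisons. Quantile normalization moved the members' median to 0.026, 0.12 and -0.069 for these 3 comparisons, in that order, array centring to -0.35, -0.024 and -0.20, and chromosome centring to 0.18, 0.34 and 0.013. Chromosome centring moved the median of all genes by 0.38, 0.26 and 0.13, so its calls are relative to that shift. It gave 22 members higher and 12 lower for null Eα against flox, 26 higher for null against flox and 7 lower for null Eα against null. Splits of all genes were 12522 higher and 3275 lower for null Eα against flox, 10987 and 3997 for null against flox, and 6346 and 2524 for null Eα against null. Without dim genes, 7169 genes were called for null Eα against flox and 7288 for null against flox, from fewer genes tested, and 1 member was higher for null Eα against null.

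Among members called before or after the change, signs turned under chromosome centring for null against flox in Psma1 (0.19), Psmd14 (0.023), Psmd3 (0.20), Psmd7 (0.36) and Psmg1 (0.027). For null Eα against flox they turned in Psma2 (0.20), Psmb1 (0.026), Psmb6 (0.37), Psmb7 (0.36), Psmd10 (0.12), Psmd11 (0.76), Psmd12 (0.49), Psmd14 (0.088), Psmd3 (0.16), Psmd5 (0.14), Psmd7 (0.51), Psmd8 (0.31), Psme4 (0.44) and Psmg1 (0.14). For null Eα against null they turned in Psmb3 (0.13), Psmb6 (0.019), Psmc5 (0.072), Psmd11 (0.097) and Psme3 (0.070). Quantile normalization turned, among such members, Psma2 (0.27), Psmd10 (0.026), Psmd5 (0.014) and Psmg1 (0.053) for null Eα against flox. Members called neither before nor after also turned: 2, 1 and 12 under chromosome centring and 5, 1 and 8 under quantile normalization, for null Eα against flox, null against flox and null Eα against null. The cause was not tested.

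Leaving out 1 array at a time gave 8 to 10 members higher and 23 to 25 lower for null Eα against flox (median -0.27 to -0.23), 13 to 16 higher and 16 to 19 lower for null against flox (median -0.0052 to 0.04), and 2 higher and 16 to 19 lower for null Eα against null (median -0.17 to -0.14). Calls over all genes ran from 10783 to 13041, from 9535 to 11652 and from 4726 to 7859 in the same order of comparisons. Deviations from the group mean had r of -0.03 to 0.26 between same-numbered arrays, over 0.1 in 3 of 9 pairs. Between arrays of different numbers r ran from -0.20 to 0.14. Whether equal replicate numbers pair the samples is not settled by these values. With the number as a replicate block, the member counts were 10 higher and 24 lower, 14 higher and 18 lower, and 2 higher and 18 lower. Only Psmd14 lost its call for null against flox (-0.19, limma adjusted p = 0.0576). Calls over all genes were 12935, 11298 and 6602 with the block, beside 12694, 11004 and 6330 without it. With 3 arrays per group, small differences and dim genes such as Psmb11 and Psmg3 are the least precise.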
